A study of Mus musculus with 16 samples.

Results

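Brown preadipocytes from the interscapular depot were compared with and without Fgf8b, using the 8 brown libraries of a series of 16, 4 control and 4 Fgf8b. Libraries were chosen by their labels alone, the source organ interscapular BAT and the names of treatment and number. The other 8 libraries of the series come from inguinal white fat and entered no test here except as an alternative. Cells of both groups were primary cultures from the stromal-vascular fraction of C57BL/6N mice that carry a UCP1 reporter, and they differ by the addition of Fgf8b to one group. The dose, the time of treatment, the vehicle, the passage and the number of animals pooled per culture are not stated in the labels. Controls carry the numbers 9, 11, 13 and 15 and Fgf8b libraries the numbers 10, 12, 14 and 16, and values below follow these orders.

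Preadipocytes are the fibroblast-like precursors that can mature into fat cells, and those of the interscapular depot can give brown fat cells, which burn fuel to make heat. Fgf8b is a secreted splice form of fibroblast growth factor 8. It binds FGF receptors together with heparan sulfate, and the receptors pass the signal through the adaptor Frs2 to RAS, RAF, MEK and the ERK kinases. ERK signalling is known to induce transcription factors of the ETS, AP-1 and EGR families and, with them, inhibitors that damp the same cascade.

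Sequencing depth, recovered from the spacing of low values, was 13.7 to 16.1 M reads in controls and 14.6 to 16.01 M reads in Fgf8b libraries. Levels are RPKM (reads per kilobase of transcript, scaled to library depth) of a gene's representative transcript, as the mean ± SD over n = 4 libraries a group. Fold changes and log2 differences, with their standard error (SE), refer to all transcripts of a gene summed, on the log2(RPKM + 0.5) scale, which understates the change of low genes. A gene was called when its limma Benjamini-Hochberg adjusted p was under 0.05. The submitters' design mentions 3 independent cultures, fewer than the 4 libraries of a group, without assigning libraries to cultures. The p-values therefore measure the spread between these libraries, part of which may be technical. Over the 224 genes given below as risen or fallen, the SE of the log2 difference was 0.0314 to 0.321 (median 0.0756) and the limma adjusted p at most 0.00591.

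The labels' source name speaks of adipocytes and the series' text of preadipocytes. Of 10 matched markers of mature fat cells 8 stayed below the filter, with 0.118 RPKM as the highest value in any library, and Cidec, Lep, Retn, Cfd and Pck1 were listed at 0 throughout. The other 2 were called lower, Fabp4, a fatty acid binding protein, at 18.1 ± 1.22 RPKM in controls and 12.1 ± 1.43 RPKM with Fgf8b, and Slc2a4, the insulin-responsive glucose transporter, at 0.408 ± 0.0681 RPKM in controls and 0.141 ± 0.0217 RPKM with Fgf8b. With the highest RefSeq transcript in place of the sum of transcripts 1 of them was called. Of the planned brown lineage markers, Zic1 was at 12.8 ± 0.468 RPKM in controls and 12.7 ± 0.990 RPKM with Fgf8b. Lhx8 was at 7.38 ± 0.289 RPKM in controls and 10.2 ± 0.766 RPKM with Fgf8b, and a further planned marker is not given here. The receptor Pdgfra, a marker of mesenchymal precursors, was at 67.5 ± 2.63 RPKM in controls and 85.3 ± 1.05 RPKM with Fgf8b. Its list of preadipocyte and fibroblast markers moved both ways. Of 23, 14 were called lower (60.9% against 33.2% over all genes) and 6 higher (26.1% against 35.8%). The gene of the other PDGF receptor stood at 141 RPKM in controls and 70.3 RPKM with Fgf8b. Control 15 stood apart from the other controls. The SD of the log2 difference over 11760 genes was 0.238 to 0.246 in its 3 pairs and 0.151 to 0.175 in the 9 other pairs within groups. Among genes at 5 RPKM or more it lay farthest from the other controls in Rpl37 and Rps19, ribosomal protein genes, by -1.27 and -1.26 on the log2 scale. Without it 10450 genes were called, 9809 of them also called in the same direction with it. The counts of members called in the 46 gene lists used below stayed within 1.5 times, except for endothelial markers called higher and epithelial markers called lower, both 0 against 1.

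Of 14713 genes tested, 10141 (68.9%) were called, 5262 (35.8%) higher and 4879 (33.2%) lower with Fgf8b. Most differences were small, with a median size of 0.373 on the log2 scale and a median of 0.0153 with sign. Called genes that changed at least 2-fold numbered 2129 (14.5%), 741 (5.04%) higher and 1388 (9.43%) lower. At 8-fold or more there were 67 higher and 128 lower genes, and at 16-fold or more 28 and 49. In 9298 genes (63.2%) the 4 values of one group all lay above the 4 of the other. Counts of gene groups below stand against these shares, since a call alone is common here. The groups were chosen with earlier results of these data known, so their counts are descriptions.

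**Figure D1:**
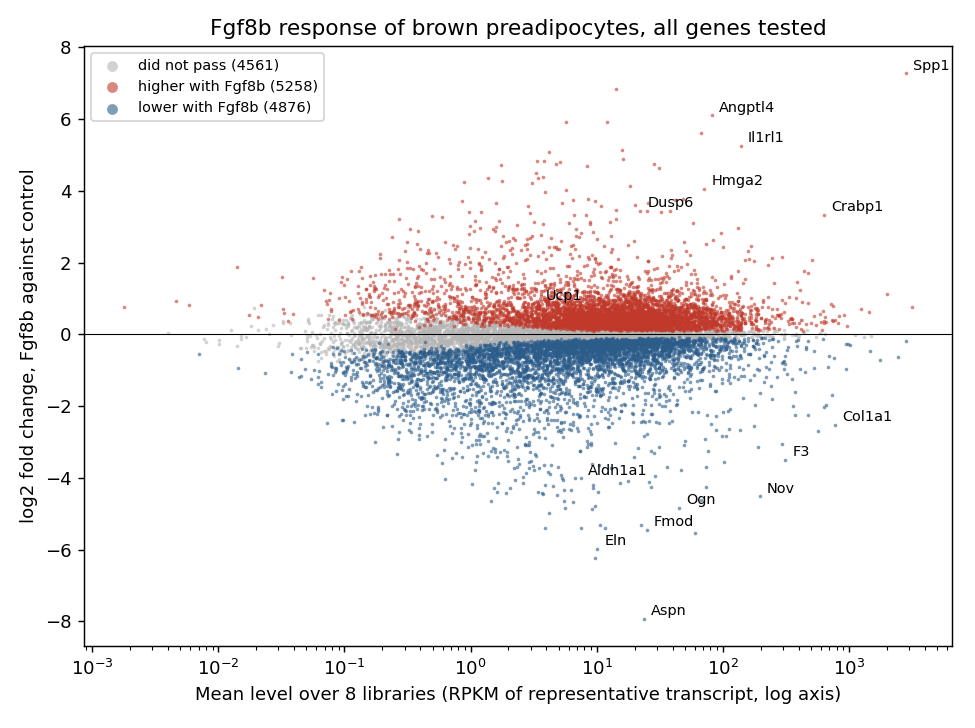
Mean level of 14695 of the 14713 genes tested (x axis, RPKM of the representative transcript on a log axis, which cannot show 18 genes whose representative transcript is at 0) against its log2 fold change with Fgf8b (y axis), in red where called higher (5258), blue where called lower (4876) and grey where not called (4561). Among the labelled genes Spp1 lies highest and Aspn lowest.

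The largest rise among genes averaging 5 RPKM or more was that of Spp1, which encodes osteopontin, a secreted phosphoprotein that binds integrins and CD44. Spp1 stood at 34.2, 34.0, 35.8 and 40.7 RPKM in controls and at 5449, 5449.6, 5703 and 5805 RPKM in Fgf8b libraries. The groups lay far apart, with little spread inside either (log2 7.28, SE 0.0479, limma adjusted p = 7.12e-16). The largest fall was that of Aspn, asporin, a small leucine-rich proteoglycan of collagen fibrils. Aspn was at 42.7, 42.5, 42.7 and 61.8 RPKM in controls, highest in control 15, and at 0, 0.142, 0.0293 and 0.117 RPKM with Fgf8b (log2 -7.93, SE 0.221, limma adjusted p = 4.73e-11), a size that depends on the added 0.5. It thus went from an abundant transcript to one near the floor in every Fgf8b library. Dusp6, a phosphatase that removes the activating phosphates from ERK, is a standard readout of FGF signalling. Its level was 3.28, 3.53, 3.66 and 4.21 RPKM in controls and 39.6, 40.0, 41.3 and 42.1 RPKM with Fgf8b, a 10.8-fold rise. The groups did not overlap, as in 63.2% of all genes.

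The promoters of these 3 genes are shown because they belong to the largest rise and fall at 5 RPKM or more and to a classical ERK feedback gene. Each covers 250 bases before and 50 after the transcript start, from RefSeq on build GRCm38.p6: chr5:104434861-104435160 for Spp1 (the first of 2 listed starts), chr13:49544193-49544492 for Aspn and chr10:99262981-99263280 for Dusp6, all on the plus strand. Capitals mark matches to an AP-1 motif (TGANTCA), an ETS motif (CCGGAA) or a cAMP response element (TGACGTCA) on either strand.
Spp1: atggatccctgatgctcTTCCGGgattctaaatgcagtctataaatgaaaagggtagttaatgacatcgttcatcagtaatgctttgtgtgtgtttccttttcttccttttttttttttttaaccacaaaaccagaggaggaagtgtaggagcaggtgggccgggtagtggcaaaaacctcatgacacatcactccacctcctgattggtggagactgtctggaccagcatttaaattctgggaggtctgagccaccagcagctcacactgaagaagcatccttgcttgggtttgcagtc
Aspn: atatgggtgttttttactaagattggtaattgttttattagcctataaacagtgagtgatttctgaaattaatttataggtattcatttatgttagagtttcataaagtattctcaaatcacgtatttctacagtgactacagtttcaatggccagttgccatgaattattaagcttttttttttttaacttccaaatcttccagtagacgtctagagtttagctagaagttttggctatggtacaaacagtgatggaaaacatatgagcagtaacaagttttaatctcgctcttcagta
Dusp6: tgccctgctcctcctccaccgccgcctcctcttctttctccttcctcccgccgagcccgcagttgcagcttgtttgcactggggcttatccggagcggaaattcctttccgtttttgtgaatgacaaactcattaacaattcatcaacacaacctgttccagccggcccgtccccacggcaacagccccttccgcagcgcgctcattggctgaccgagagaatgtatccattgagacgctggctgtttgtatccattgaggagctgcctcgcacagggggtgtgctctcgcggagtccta
The single match in the windows searched was an ETS motif on the minus strand of the Spp1 window, read as TTCCGG, at -233 to -228 from the start. Over all 32851 promoters of the table, 7.81% hold the AP-1, 14.9% the ETS and 1.79% the cAMP motif, and 23.3% hold any. The second Spp1 start, both Etv5 starts and both Il1rl1 starts also had no match. Letters found or not found in these windows are a description only.

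Several of the other large rises were of secreted and surface proteins. Mcpt8, a serine protease known from basophils, was listed at 0 in all 4 controls and at 28.8, 30.2, 29.8 and 26.1 RPKM with Fgf8b. Angptl4, a secreted inhibitor of lipoprotein lipase, was at 2.29, 2.40, 2.18 and 2.52 RPKM in controls and 156, 161, 161 and 165 RPKM with Fgf8b, 68.7-fold higher on the summed scale. Il1rl1, the receptor for interleukin-33, went from 6.97 ± 0.0937 to 269.9 ± 8.52 RPKM. None of these genes had overlapping groups, which held for 63.2% of all genes. Also among the 15 largest rises were Akr1c18, a progesterone-inactivating dehydrogenase (0.242 to 24.1 RPKM), Slc14a1, a urea transporter (0.825 to 30.99 RPKM), Cck, the peptide hormone cholecystokinin (0.848 to 31.8 RPKM), Il18rap, a subunit of the interleukin-18 receptor (0.302 to 10.02 RPKM), and Mmp3, a matrix metalloprotease (2.20 to 60.4 RPKM).

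Among the 15 largest falls, next after Aspn came Gm15698, a synonym of Elobl in RefSeq (19.4 to 0.124 RPKM), and then Eln, elastin (20.1 to 0.189 RPKM). Wisp2, a CCN family matricellular protein, fell from 118 ± 11.3 to 2.34 ± 0.440 RPKM, and Fmod, fibromodulin, from 49.0 to 1.02 RPKM. C1qtnf3, a secreted adiponectin relative, fell 42.5-fold and Arhgap20, a GTPase activator, 41.8-fold. The gene listed as 9930013L23Rik, a synonym of the hyaluronan-binding Cemip in RefSeq, fell from 43.6 to 0.976 RPKM. Aoc3, a surface amine oxidase of fat and smooth muscle cells, went from 18.02 ± 1.78 to 0.354 ± 0.0890 RPKM. Gjb2, a gap junction connexin, fell 28.8-fold and Wnt16, a WNT ligand, 25.5-fold.

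The Fgf8 gene itself was near 0, with 0.0629 RPKM in 1 control and 0 in the other 7 libraries. Of 14 FGF ligand genes, 10 passed the filter, 3 rose (30% against 35.8% over all genes) and 4 fell (40% against 33.2%). Fgf1, a ligand of all FGF receptors, was at 0.875, 0.632, 0.947 and 0.828 RPKM in controls and 4.604, 4.70, 4.98 and 4.84 RPKM with Fgf8b, a 5.71-fold rise. Fgf2, a mitogen of mesenchymal cells, was at 3.98, 4.19, 3.70 and 2.60 RPKM in controls, lowest in control 15, and 8.63, 10.7, 11.3 and 10.2 RPKM with Fgf8b, 2.90-fold higher. Fgf10, which acts on Fgfr2b and is needed for fat development, rose 2.09-fold, from 3.92 ± 0.596 to 8.04 ± 0.257 RPKM. In all 3 genes the Fgf8b values lay above every control, and 63.2% of all genes had groups apart in either direction. Fgf18, of the same subfamily as Fgf8, moved the other way, from 6.70, 6.30, 5.02 and 6.19 to 0.633, 0.917, 0.631 and 0.940 RPKM, a 6.58-fold fall. With the highest RefSeq transcript in place of the sum, 2 instead of 4 ligand genes were called lower.

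Of the 12 receptors and heparan sulfate co-receptors tested, 4 rose (33.3% against 35.8% over all genes) and 7 fell (58.3% against 33.2%). The median log2 was -0.48. Fgfr1 had the highest level of the 4 receptor genes tested, at 59.8, 60.9, 59.7 and 56.3 RPKM in controls and 78.6, 76.6, 79.7 and 75.1 RPKM with Fgf8b, 1.31-fold higher. Fgfr2 fell 2.21-fold, from 5.10 ± 0.167 to 2.30 ± 0.191 RPKM. Fgfr3 (0.876 to 0.533 RPKM) and the decoy-like receptor Fgfrl1 (15.2 to 11.5 RPKM) fell as well. Among the proteoglycans that hold FGF on the surface, glypican Gpc1 rose 2.20-fold and syndecan Sdc4 1.76-fold, while Gpc6 fell 4.65-fold, Gpc3 3.88-fold and Gpc4 2.17-fold.

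The cascade from receptor to ERK moved little: of 20 genes 8 rose and 7 fell, 1 of them at least 2-fold (5% against 14.5% over all genes). That gene was Gab1, a docking protein (2.02-fold lower). Map2k1, which encodes the kinase MEK1, rose 1.92-fold, from 43.9 ± 0.835 to 83.8 ± 0.593 RPKM. The scaffold Ksr1 fell 1.69-fold and the small GTPase Rras 1.73-fold.

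In the list of feedback inhibitors 17 of 25 genes rose, 12 at least 2-fold (48% against 5.04% over all genes), and 5 fell. Dusp4, a nuclear ERK phosphatase, was at 6.69, 6.37, 6.10 and 6.21 RPKM in controls and 65.8, 71.6, 70.4 and 69.8 RPKM with Fgf8b, 10.9-fold higher. Dusp5, another nuclear ERK phosphatase, rose 8.48-fold, from 1.71 ± 0.366 to 15.9 ± 1.04 RPKM. Neither gene had overlapping groups, and 63.2% of all genes had none either. The Sprouty genes, inhibitors of receptor signalling, split: Spry4 (1.89 to 12.7 RPKM) and Spry2 (18.9 to 52.6 RPKM) rose, and Spry1 fell by 1.04 on the log2 scale, from 22.9, 23.3, 24.6 and 19.8 to 10.3, 11.1, 11.3 and 11.1 RPKM. The related Spred1 (3.23-fold), Spred2 (2.13-fold) and Spred3 (2.94-fold) all rose, as did Errfi1, an inhibitor of the EGF receptor (5.56-fold), and Rasa1, a RAS GTPase activator (4.35-fold). Inhibitors that fell were Dusp8, a phosphatase of JNK and p38 (2.54-fold), Il17rd, also named Sef (1.62-fold), and Dusp1 (1.28-fold). Flrt3, which the list also holds, is a membrane partner of FGF receptors that promotes ERK signalling and not an inhibitor, and it fell 1.93-fold. The rises counted above likewise include a gene of its family (log2 0.20) and a galectin gene (log2 1.42). The counts of this list thus cover more than inhibitors.

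**Figure D2:**
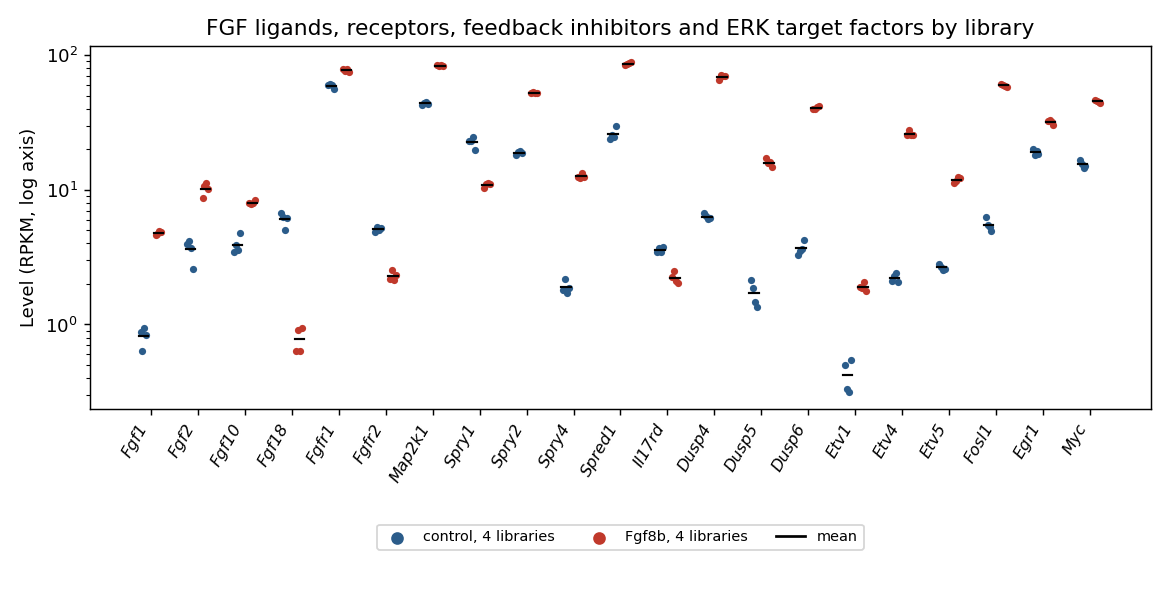
Level in each of the 8 libraries (y axis, RPKM on a log axis) of FGF ligands, receptors, feedback inhibitors and ERK target factors (x axis), control in blue and Fgf8b in red, with a black bar at the mean of 4. Dusp4, Dusp5, Dusp6, Etv4 and Fosl1 rise with wide gaps between groups, while Fgf18, Fgfr2, Spry1 and Il17rd fall.

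Of 28 transcription and chromatin factors listed here as ERK targets, 22 rose (78.6% against 35.8% over all genes) and 3 fell. At least 2-fold, 15 rose (53.6% against 5.04%), and the median log2 was 1.03. The list was chosen with earlier results of these data known, so its count is a description and no independent support. The ETS factor Etv4 was at 2.09, 2.30, 2.42 and 2.08 RPKM in controls and 25.6, 27.8, 25.6 and 25.6 RPKM with Fgf8b, 11.1-fold higher. Its relatives Etv5 (4.52-fold) and Etv1 (3.92-fold) rose too. All 3 had groups that did not overlap, as had 63.2% of all genes in either direction. Among AP-1 genes, Fosl1, which encodes FRA1, rose 10.6-fold, from 5.50 ± 0.567 to 59.7 ± 1.29 RPKM. Jun rose 4.63-fold and Junb 1.92-fold, Jund fell 1.65-fold, and Fos did not pass (2.71 ± 0.469 RPKM in controls and 3.12 ± 0.309 RPKM with Fgf8b). The growth factor response genes Egr1 (1.67-fold), Egr2 (3.34-fold) and Egr3 (6.70-fold) all rose. Myc, a driver of cell growth, was at 16.8, 15.5, 14.5 and 15.1 RPKM in controls and 46.9, 45.5, 45.0 and 44.3 RPKM with Fgf8b, 2.92-fold higher. Hmga2, which encodes an architectural chromatin protein of embryonic and dividing cells, went up from 7.90 ± 0.238 to 134 ± 2.49 RPKM, and Hmga1 rose 13.7-fold. Klf4, a factor linked to growth arrest, fell from 45.9 ± 2.04 to 13.2 ± 0.453 RPKM. Hmga1, Fosl1 and Jund share over 50% of their 31-base words with transcripts of other genes in GENCODE M21, so their own values are uncertain.

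Of 11 genes of the EGF family 4 rose (36.4% against 35.8% over all genes) and 3 fell (27.3% against 33.2%). The 4 that rose were ligands, and the receptor was among the 3 that fell. Areg, amphiregulin, was at 0.0607, 0, 0 and 0.0519 RPKM in controls and 10.7, 12.01, 11.4 and 11.8 RPKM with Fgf8b. Its controls are at the floor, so no fold is given. Ereg, epiregulin, rose from 1.49 ± 0.197 to 13.6 ± 0.897 RPKM, Btc, betacellulin, from 1.41 ± 0.0532 to 9.07 ± 0.654 RPKM, and Hbegf 4.42-fold. Egfr, their receptor, fell 1.67-fold, from 22.4 ± 0.948 to 13.3 ± 0.925 RPKM. The sheddase Adam17 that releases such ligands did not pass (27.5 ± 2.15 RPKM in controls and 29.7 ± 0.328 RPKM with Fgf8b). Without control 15 it was called higher, by 0.17 on the log2 scale (limma adjusted p = 0.000587), as it was in 2 of the other settings tried.

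Of 34 other growth factors 14 rose (41.2% against 35.8% over all genes) and 13 fell (38.2% against 33.2%), 9 and 11 at least 2-fold. Esm1, endocan, a proteoglycan known from endothelial tip cells, rose from 1.80 ± 0.2498 to 55.0 ± 2.02 RPKM. Nov, a CCN family matricellular protein, was at 372, 385, 372 and 378 RPKM in controls and 15.7, 16.6, 17.3 and 16.03 RPKM with Fgf8b, 22.8-fold lower. Bmp4, a growth factor that commits precursors to the fat lineage, fell 13.2-fold, from 5.44 ± 0.329 to 0.339 ± 0.141 RPKM. Of 28 cytokine, chemokine and related genes 17 rose (60.7% against 35.8% over all genes) and 7 fell (25% against 33.2%). Il11, a cytokine of the interleukin-6 family, rose 13.4-fold, from 0.812 ± 0.204 to 12.2 ± 1.22 RPKM, Il1rn, the interleukin-1 receptor antagonist, fell 10.7-fold, and Cxcl5, a neutrophil chemokine, fell 7.98-fold. Cxcl12, an abundant stromal chemokine, fell from 422 ± 37.5 to 205 ± 6.98 RPKM.

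Integrins, the receptors for matrix, changed in both directions. Of 19, 9 were higher (47.4% against 35.8% over all genes) and 8 lower (42.1% against 33.2%). Itga11, a collagen receptor subunit of fibroblasts, was at 20.4, 21.3, 21.9 and 19.4 RPKM in controls and 0.392, 0.457, 0.444 and 0.290 RPKM with Fgf8b, 39.6-fold lower. Itga1, another collagen receptor subunit, fell 5.42-fold. The laminin receptor subunit Itga6 rose 6.27-fold, from 2.72 ± 0.0638 to 17.3 ± 0.861 RPKM. The common partner Itgb1 did not pass (384 ± 23.8 RPKM in controls and 384 ± 6.19 RPKM with Fgf8b). Among 25 cadherin and contact genes 14 rose (56% against 35.8% over all genes) and 10 fell (40% against 33.2%). Alcam, an adhesion molecule of the immunoglobulin family, rose 11.9-fold, Cdh6 5.53-fold and the gap junction gene Gja1 5.38-fold, while Cdh3, P-cadherin, fell 20.4-fold and the mesenchymal cadherin Cdh11 1.99-fold.

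Genes of axon guidance, which also steer migrating non-neural cells, mostly fell. Of 40, 24 were lower (60% against 33.2% over all genes) and 10 higher (25% against 35.8%). The secreted Sema3c was at 13.7, 15.8, 15.4 and 20.49 RPKM in controls and 1.75, 2.04, 1.63 and 1.81 RPKM with Fgf8b, 8.55-fold lower, and Sema3d fell 6.45-fold. Their relative Sema3a rose 5.62-fold. Sema7a, which is anchored in the membrane and binds integrins, rose 48.8-fold, from 2.46 ± 0.280 to 132 ± 3.13 RPKM. Over the whole list 7 genes rose at least 2-fold (17.5% against 5.04% over all genes) and 14 fell at least 2-fold (35% against 9.43%).

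Matrix genes mostly fell. Of 47 matrix glycoproteins and proteoglycans 37 fell, 23 at least 2-fold (48.9% against 9.43% over all genes), and 7 rose (median log2 -0.9999 against 0.0153 over all genes). Eln, the elastic fibre protein, was at 20.4, 21.1, 19.5 and 19.5 RPKM in controls and 0.198, 0.0878, 0.217 and 0.252 RPKM with Fgf8b. Ogn, osteoglycin, was at 76.8, 84.9, 83.0 and 103 RPKM in controls and 2.90, 2.93, 2.83 and 3.06 RPKM with Fgf8b. They fell 63.4-fold and 28.6-fold, and neither had overlapping groups, like 63.2% of all genes. Besides Spp1, the entactin Nid1, a basement membrane linker, was an abundant member that rose (1.35-fold). Of 20 enzymes and chaperones of collagen and elastin maturation 15 fell (75% against 33.2% over all genes) and 2 rose (10% against 35.8%). Lox, lysyl oxidase, which cross-links collagen and elastin, was at 581, 604, 590.3 and 676 RPKM in controls and 122, 131, 133 and 134 RPKM with Fgf8b, 4.73-fold lower. P4ha3 (4.602-fold) and Leprel1 (4.48-fold), prolyl hydroxylases, and Adamts2, a procollagen protease (4.47-fold), fell as well, while P4ha1 rose 1.23-fold.

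Col1a1, a chain of fibrillar collagen, fell from 1313 ± 162 to 234 ± 14.4 RPKM, and the fibrillar chains Col3a1 and Col1a2 fell 4.78-fold and 4.06-fold. These 3 genes belong to the list of preadipocyte and fibroblast markers. Of its 23 members 14 fell (60.9% against 33.2% over all genes) and 6 rose (26.1% against 35.8%). The summed level of that whole list was 7005 to 7497 RPKM in controls and 5585 to 5882 RPKM with Fgf8b. Pi16, a marker of early fibroblast-like progenitors, fell 9.80-fold, from 3.59 ± 0.264 to 0.268 ± 0.113 RPKM. Vim, vimentin, rose 1.54-fold and S100a4 1.63-fold. In bulk RNA, fewer cells of a type and less RNA per cell cannot be told apart.

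**Figure D3:**
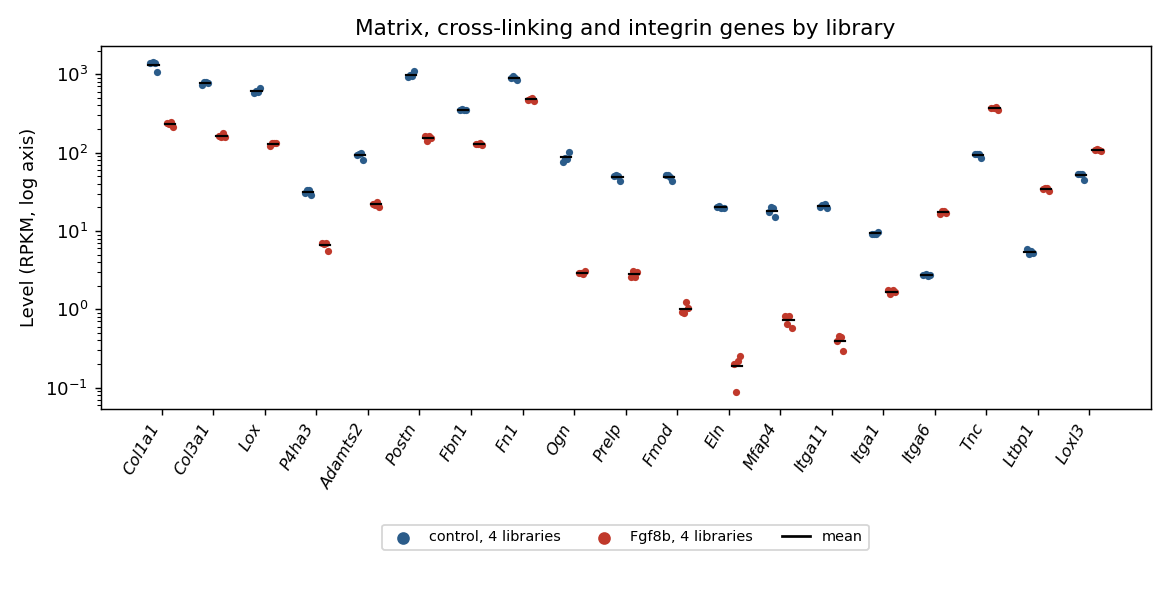
Level in each of the 8 libraries (y axis, RPKM on a log axis) of collagen, cross-linking, matrix and integrin genes (x axis), control in blue and Fgf8b in red, with a black bar at the mean of 4. Ogn, Fmod, Eln, Mfap4 and Itga11 drop farthest, while Itga6, Tnc, Ltbp1 and Loxl3 stand higher with Fgf8b.

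Genes of cell division rose almost without exception, by modest folds. Of 46 replication genes 45 rose (97.8% against 35.8% over all genes) and 0 fell, though 4 rose at least 2-fold (8.70% against 5.04%). With upper-quartile scaling 1 of them was called lower. Of 50 mitotic genes 49 rose (98% against 35.8%) and 0 fell, and 8 rose at least 2-fold (16% against 5.04%). The medians were 0.54 and 0.78 on the log2 scale. Among them E2f8, a cell-cycle repressor of the E2F family, rose 2.87-fold, the replication factors Mcm10 2.57-fold and Cdc6 2.22-fold, and the mitotic kinase Bub1 2.13-fold. Ccnd1, the D-type cyclin that growth factors induce, was at 23.7, 22.9, 24.5 and 21.9 RPKM in controls and 144, 146, 141 and 142 RPKM with Fgf8b, 6.24-fold higher. Its partners Cdk6 and Cdk4 rose 1.87-fold and 1.34-fold. The CDK inhibitors Cdkn1c and Cdkn1a fell 2.74-fold and 2.23-fold. Of the 15 D cyclins, CDKs and CDK inhibitors listed 6 rose (40% against 35.8% over all genes) and 7 fell (46.7% against 33.2%). The other 2 did not pass, an abundant inhibitor among them (359 RPKM in controls and 345 RPKM with Fgf8b).

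Genes of ribosome production rose with those of replication and mitosis. Of 40 tested 39 rose, 20 at least 2-fold (50% against 5.04% over all genes), with a median log2 of 0.99. Dkc1, the dyskerin of nucleolar RNA complexes, was at 13.5, 12.4, 12.4 and 14.3 RPKM in controls and 35.8, 38.7, 35.7 and 39.8 RPKM with Fgf8b, 2.85-fold higher. Nhp2, from the same complexes, rose 2.74-fold, Polr3g, an RNA polymerase III subunit, 2.58-fold and the assembly factor Mrto4 2.49-fold. The exception was Ubtf, a factor of ribosomal RNA transcription, which fell 1.09-fold. Of 34 genes of nucleotide, polyamine and one-carbon synthesis 30 rose (88.2% against 35.8% over all genes) and 2 fell (5.88% against 33.2%). Sms, spermine synthase, rose 2.72-fold and Shmt1, the cytosolic serine hydroxymethyltransferase, 2.36-fold. Aldh1l2, a mitochondrial folate enzyme, fell 3.82-fold, from 49.9 ± 2.30 to 12.99 ± 0.604 RPKM, and Psph, the last enzyme of serine synthesis, 1.61-fold.

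**Figure D4:**
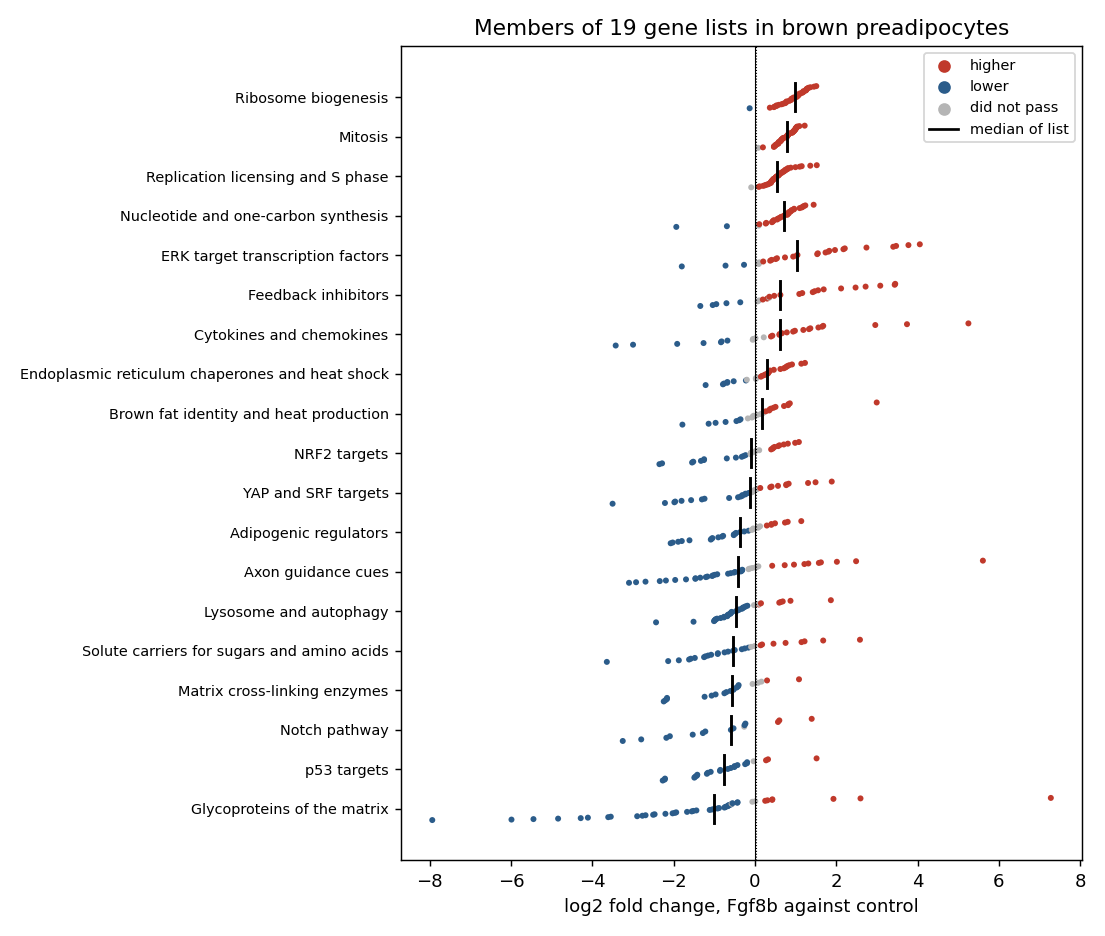
Log2 fold change with Fgf8b (x axis) of each tested member of 19 gene lists (y axis), red where called higher, blue where called lower and grey where not called, with a black bar at each list's median and a dotted line at the median of all genes. Ribosome, mitosis, replication and nucleotide lists lie almost wholly to the right of 0, and the matrix and p53 lists mostly to the left.

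Lipid genes mostly fell or stayed without a call. Of 31 genes of fatty acid uptake, release and oxidation 18 fell (58.1% against 33.2% over all genes) and 2 rose (6.45% against 35.8%). Mgll, monoglyceride lipase, was at 6.30, 6.34, 6.23 and 5.37 RPKM in controls and 0.238, 0.343, 0.373 and 0.463 RPKM with Fgf8b, 13.7-fold lower. Lpl, lipoprotein lipase, fell from 67.4 ± 5.16 to 18.8 ± 0.284 RPKM, opposite to its inhibitor Angptl4. Plin2, a lipid droplet coat protein, was among the 2 that rose (1.46-fold). Of 19 synthesis genes 11 fell (57.9% against 33.2%) and 2 rose (10.5% against 35.8%), or 4 with the highest RefSeq transcript in place of the sum. Acss2, which activates acetate, fell 4.48-fold and Gpam, the first enzyme of triglyceride synthesis, 2.90-fold, while Fasn, fatty acid synthase, rose 1.34-fold.

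Transporters of sugars and amino acids fell in 19 of 29 cases (65.5% against 33.2% over all genes) and rose in 8 (27.6% against 35.8%). Those that rose included Slc2a1, the basal glucose transporter GLUT1 (28.9 ± 0.360 to 92.2 ± 1.57 RPKM; 3.20-fold), and Slc16a3, a lactate exporter (6.00-fold). Slc1a3, a glutamate and aspartate transporter, fell 12.5-fold, from 8.21 ± 0.557 to 0.559 ± 0.0720 RPKM, and Slc7a2, a cationic amino acid transporter, 4.39-fold.

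Of 24 genes known as p53 targets 20 fell, 10 at least 2-fold (41.7% against 9.43% over all genes), and 3 rose (median log2 -0.76). Cdkn1a, the cell cycle inhibitor p21, was at 212, 212, 208 and 191 RPKM in controls and 91.5, 88.9, 90.7 and 89.0 RPKM with Fgf8b. Gdf15, a stress cytokine, fell from 12.2 ± 1.34 to 2.48 ± 0.569 RPKM, Fas, a death receptor, 4.66-fold and Trp53inp1 4.63-fold. Against these, Plk3, a kinase of the polo family, rose 2.86-fold and Mdm2, the ligase that degrades p53, 1.251-fold. Of 28 targets of the antioxidant factor NRF2 10 rose (35.7% against 35.8% over all genes) and 12 fell (42.9% against 33.2%). At the low end were detoxifying enzymes, Gsta4 (5.09-fold lower) and Ephx1 (4.87-fold lower).

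Of 37 lysosome and autophagy genes 28 fell (75.7% against 33.2% over all genes) and 7 rose (18.9% against 35.8%). At least 2-fold, 3 fell (8.11% against 9.43%) and 1 rose (2.70% against 5.04%). The falls were thus frequent and small (median log2 -0.47). Ctsf, a cathepsin, fell 5.39-fold, while the abundant cathepsin Ctsl was at 322, 342, 325 and 349 RPKM in controls and 620.2, 593, 615 and 628 RPKM with Fgf8b, 1.84-fold higher. Bnip3, a mitophagy receptor, rose 3.65-fold. Of 30 chaperone and heat shock genes 19 rose (63.3% against 35.8%) and 7 fell (23.3% against 33.2%). Hspd1, the mitochondrial chaperonin, rose 2.35-fold and Hsp90aa1 1.88-fold, and Herpud1, a gene of protein degradation at the endoplasmic reticulum, fell 2.32-fold. Hspd1, Hsp90aa1 and Bnip3 share over 50% of their 31-base words with transcripts of other genes, so their own values are uncertain.

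In the Notch pathway, which passes signals between touching cells, 11 of 15 genes fell (73.3% against 33.2% over all genes). Another 3 rose (20% against 35.8%). The ligand Jag1 was at 13.5, 13.2, 13.6 and 13.6 RPKM in controls and 1.34, 1.38, 1.32 and 1.52 RPKM with Fgf8b, 9.51-fold lower. The receptor Notch3 fell 4.52-fold and the coactivator Maml2 2.43-fold, while Rbpj, the DNA-binding factor of the pathway, rose 2.63-fold and the receptor Notch2 1.48-fold. In the hedgehog pathway 7 of 13 fell (53.85% against 33.2% over all genes) and 3 rose (23.1% against 35.8%). The co-receptors Boc (4.22-fold) and Gas1 (3.39-fold) fell and Hhip, a decoy receptor, rose 8.26-fold, from 0.437 ± 0.0592 to 4.21 ± 0.238 RPKM.

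Targets of YAP and SRF, which control genes of growth and of the contractile cytoskeleton, changed in both directions. Of 32, 10 were higher (31.25% against 35.8% over all genes) and 16 lower (50% against 33.2%). F3, tissue factor, was at 555, 554, 552 and 628 RPKM in controls and 52.96, 47.9, 51.6 and 49.4 RPKM with Fgf8b, 11.3-fold lower. Acta2, smooth muscle actin, fell 3.89-fold and Cnn1, calponin, 4.63-fold. Of 27 glucocorticoid or FoxO responsive genes 10 rose (37.04% against 35.8% over all genes) and 13 fell (48.15% against 33.2%). Sepp1, selenoprotein P, fell 7.14-fold and Pik3ip1, an inhibitor of PI3 kinase, 4.94-fold. Among 21 skeletal and tendon genes 9 rose (42.9% against 35.8% over all genes) and 6 fell (28.6% against 33.2%). Tnmd, tenomodulin of tendons, fell from 18.9 ± 1.62 to 0.474 ± 0.155 RPKM, and Ank, a pyrophosphate transporter (7.07-fold), and Mgp, an inhibitor of calcification (3.39-fold), rose.

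Genes of retinoid metabolism moved far in opposite directions. Retinoic acid is made from retinol through retinal, the last step by retinaldehyde dehydrogenases. Aldh1a1, one of these, was at 13.9, 14.7, 14.3 and 15.1 RPKM in controls and 0.369, 0.425, 0.438 and 0.469 RPKM with Fgf8b, 16.2-fold lower. Crabp1, a cytosolic binding protein of retinoic acid, was at 118, 124, 118 and 101 RPKM in controls and 1255, 1094, 1180.3 and 1115 RPKM with Fgf8b, 10.1-fold higher. Rarb, a retinoic acid receptor that is itself induced by retinoic acid, rose 6.45-fold, from 1.06 ± 0.0978 to 7.62 ± 0.762 RPKM. Across all 38 nuclear receptor and retinoid genes 11 rose (28.95% against 35.8% over all genes) and 19 fell (50% against 33.2%). Pgr, the progesterone receptor, fell 7.63-fold.

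Adipogenic regulators mostly fell (median log2 -0.36). Of 31, 18 were lower (58.1% against 33.2% over all genes) and 7 higher (22.6% against 35.8%). Pparg, the nuclear receptor that drives fat cell differentiation, was at 5.39, 4.83, 4.64 and 4.68 RPKM in controls and 2.47, 2.66, 2.56 and 3.08 RPKM with Fgf8b, 1.75-fold lower. Zfp423, a zinc finger protein that commits cells to the fat lineage, and Zfp521, its relative that opposes the fat fate, both fell (4.20-fold and 4.06-fold). Klf15 fell 3.70-fold, and Cebpb, an early factor of differentiation, rose 1.32-fold.

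Genes of brown identity and heat production moved both ways. Of 26, 11 rose (42.3% against 35.8% over all genes) and 7 fell (26.9% against 33.2%). Of these, 1 and 2 changed at least 2-fold (11.5% together, against 14.5% over all genes). Ucp1, the uncoupling protein of brown fat, was at 2.35, 2.93, 1.91 and 2.46 RPKM in controls, lowest in control 13, and 4.18, 4.08, 4.58 and 4.97 RPKM with Fgf8b (log2 0.86, SE 0.124, limma adjusted p = 6.51e-05). Every Fgf8b value lay above every control, and 63.2% of all genes had groups apart in either direction. The cells carry a UCP1 reporter, and whether it adds reads to this gene was not tested. Dio2, the deiodinase that activates thyroid hormone, was at 0.2503, 0.196, 0.248 and 0.214 RPKM in controls and 2.49, 2.94, 3.30 and 3.11 RPKM with Fgf8b (log2 2.996, SE 0.142, limma adjusted p = 4.18e-09). Prdm16, a regulator of brown identity, rose 1.31-fold (1.12 to 1.43 RPKM), and Lhx8, a brown lineage marker, 1.37-fold. Ppargc1a, a coactivator of mitochondrial genes, did not pass on its summed value (log2 0.21, SE 0.246, limma adjusted p = 0.461). Meox2, a homeobox factor, fell 3.44-fold and Ucp2 1.95-fold.

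**Figure D5:**
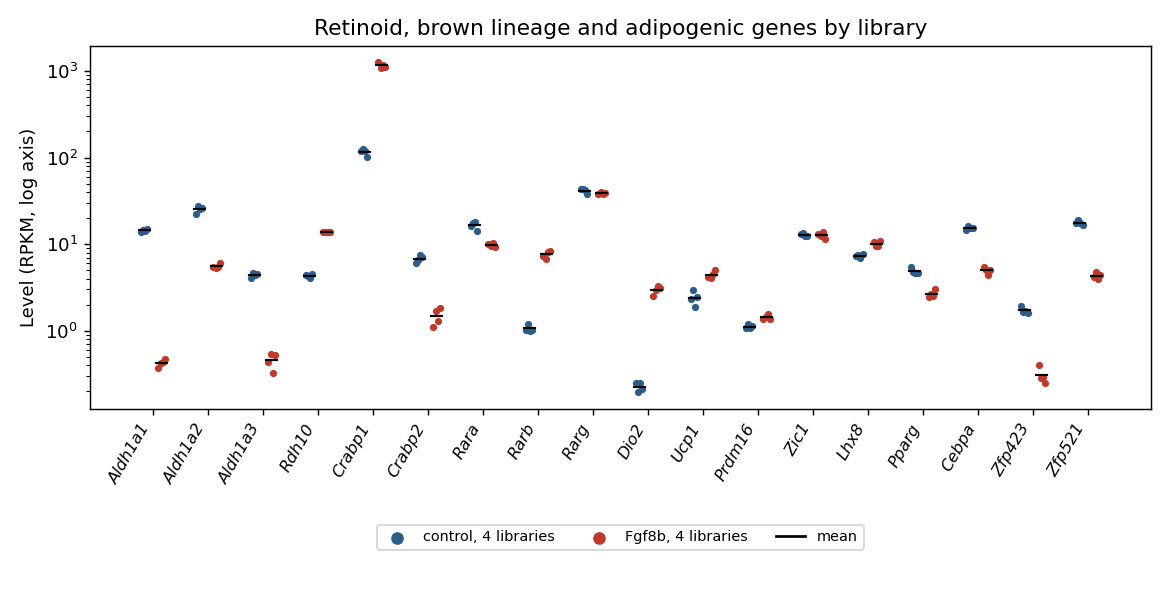
Level in each of the 8 libraries (y axis, RPKM on a log axis) of retinoid, brown lineage and adipogenic genes (x axis), control in blue and Fgf8b in red, with a black bar at the mean of 4. Aldh1a1 and Crabp1 move to opposite sides, Dio2 and Ucp1 stand higher with Fgf8b, and Zic1 overlaps between groups.

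Noradrenaline activates brown fat through cAMP. Of 41 genes of cAMP and adrenergic signalling, receptors, G proteins, cyclases and kinases among them, 15 rose (36.6% against 35.8% over all genes) and 18 fell (43.9% against 33.2%). The adenosine receptor Adora2a fell from 2.43 ± 0.424 to 0.144 ± 0.0268 RPKM and the adrenergic receptor Adra1d 5.59-fold, while the adenosine receptor Adora2b rose 3.45-fold and the cyclase Adcy7 3.11-fold. Gnas, which encodes the stimulatory G protein, did not pass (649.8 ± 25.3 RPKM in controls and 653 ± 6.59 RPKM with Fgf8b), and with upper-quartile factors it was called lower (limma adjusted p = 0.0398). In prostaglandin synthesis 8 of 15 rose (53.3% against 35.8% over all genes) and 5 fell (33.3% against 33.2%). Ptgs2, the inducible cyclooxygenase, was at 2.02, 1.74, 1.57 and 2.54 RPKM in controls and 33.4, 35.1, 35.0 and 36.7 RPKM with Fgf8b, 17.7-fold higher, and Ptges, a prostaglandin E synthase, rose from 3.34 ± 0.262 to 16.3 ± 0.361 RPKM.

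Ion channel genes mostly fell. Of 31, 20 were lower (64.5% against 33.2% over all genes) and 6 higher (19.4% against 35.8%). Kcne4, a potassium channel subunit, fell 13.8-fold, from 87.4 ± 4.62 to 6.08 ± 0.133 RPKM, and the calcium-activated potassium channel Kcnn4 rose 7.39-fold. Of 25 other receptor tyrosine kinases and their co-receptors 10 rose and 10 fell (40% each, against 35.8% and 33.2% over all genes). The GDNF family co-receptors Gfra2 and Gfra1 rose 6.71-fold and 4.27-fold, and Ror1, a WNT5A receptor, fell 5.22-fold. Among 18 long non-coding RNA genes 4 rose (22.2% against 35.8% over all genes) and 11 fell (61.1% against 33.2%). Mir17hg, the host of a MYC-induced miRNA cluster, rose 3.56-fold, and the imprinted H19 and Meg3 fell 2.58-fold and 2.41-fold.

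Markers of other cell types were counted beside these results, and over all genes 35.8% were called higher and 33.2% lower. Of 12 Schwann cell markers 9 passed the filter and 8 fell, and their summed level was 171 to 183 RPKM in controls and 67.9 to 70.0 RPKM with Fgf8b. Most of that sum was Pmp22, a myelin protein gene that other cell types also express, at 157 ± 4.71 RPKM in controls and 63.2 ± 1.35 RPKM with Fgf8b. S100b fell 6.02-fold and Mbp 3.76-fold, and Sox10, the defining factor, did not pass (1.23 ± 0.221 RPKM in controls and 0.928 ± 0.140 RPKM with Fgf8b; 7 of 18 alternative settings called it lower). Of 8 pericyte markers tested 6 fell and 1 rose, from sums of 951 to 1168 RPKM to 282 to 332 RPKM. Most of that sum was Acta2, named above among the YAP and SRF targets, at 1057 ± 98.2 RPKM in controls and 271 ± 19.7 RPKM with Fgf8b. Notch3 is also among those that fell, and Rgs5, a defining pericyte gene, rose 2.92-fold, from 0.793 ± 0.215 to 2.62 ± 0.340 RPKM. Of 16 leukocyte markers 13 stayed below the filter and 8 were listed at 0, the macrophage marker Emr1 among them. Lyz2 fell from 2.96 ± 0.819 to 0.171 ± 0.140 RPKM and Cd68 rose 1.44-fold, with sums of 3.22 to 5.66 RPKM in controls and 1.82 to 2.26 RPKM with Fgf8b. Of 13 endothelial markers 6 passed, with sums of 7.97 to 9.58 RPKM in controls and 1.55 to 2.04 RPKM with Fgf8b. Of these 3 fell, Tek, an endothelial receptor, 13.2-fold, 2 did not pass, and 1 rose, a call lost in 10 of the 18 alternative settings. Most of the control sum was Tek, at 6.58 RPKM in controls and 0.380 RPKM with Fgf8b. Of 16 muscle precursor markers 6 passed, 2 rose and 3 fell (1 with the highest RefSeq transcript in place of the sum), with sums of 14.2 to 16.8 RPKM in controls and 12.4 to 13.2 RPKM with Fgf8b. Myod1, Myf6 and Myh8 were listed at 0. The skeletal actin gene was among the 3 that fell, from 9.29 to 2.28 RPKM. The 2 that rose were a PAX family gene, from 4.82 to 6.23 RPKM, and Chrna1, a muscle acetylcholine receptor subunit, from 0.0409 ± 0.0297 to 3.46 ± 0.501 RPKM. Of 11 epithelial markers 3 passed, 1 rose and 1 fell, with sums of 13.1 to 14.8 RPKM in controls and 12.1 to 15.2 RPKM with Fgf8b, and Krt14 was listed at 0. The epithelial fall was lost in 10 of the 18 settings and the rise in 2. The part of these cell types in the results above was not tested.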

How the data were processed

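The authors deposited 1 table of RPKM per transcript, 168326 entries in 16 columns with decimal commas. The unit was read from the values, since 95.7 to 96.2% of low brown values lay within 0.1 of a whole read, and this also gave the depths. Per the labels' protocols, total RNA was taken up in Trisure, purified on columns and made into libraries with a TruSeq v2 kit. CASAVA and bcl2fastq appear in the submitters' processing notes. Aligner, counter, genome build and use of strand: not given in the sources used here. Reads of a gene and of its antisense partner therefore cannot be told apart. Entries without a symbol (23178, 13.8%) and 808 entries of 299 repeated accessions were left out, and the 144543 others were summed to 29057 genes. Genes that reached 0.5 RPKM in 4 or more of the 8 libraries (14713) were tested on log2(sum + 0.5) with limma 3.58.1 in R 4.3.3, with trend and robust moderation and Benjamini-Hochberg adjustment. Levels are those of the most abundant RefSeq transcript, or of the most abundant entry of genes without one. Its sign differs from that of the sum in 11 of 9049 called genes.

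Gene lists (46, with 1248 entries of which 1237 matched, 8 by a synonym) and the comparison were chosen with earlier results of these data known. Named genes are all receptors, feedback inhibitors and ERK targets, the 4 largest changes and up to 2 counter-examples of each other list, and the 15 largest rises and falls, 312 with those that did not pass or set control 15 apart. The text names a part of them. Lhx8, Zic1 and Pdgfra are lineage markers, and Loxl3, Ltbp1, Mfap4, Tnc and the genes of the last observations were chosen after their values were seen, as were further genes of the plots. On simulated data for this comparison with 14498 genes, the test called 38 of 50 genes at a true fold of 1.25, 48 of 50 at 1.5 and all 50 at 2, and 13 of 14298 unchanged ones. In that simulation few genes changed, whereas 68.9% were called in the data. All its genes shared a dispersion of 0.00282, taken from well measured genes, and no library was set apart like control 15. Its rates therefore need not hold for these data. Promoters came from RefSeq, where Etv4 and Angptl4 had no entry. Shared words were counted for 227 of 233 named genes. Python 3.11.15 with pandas 2.3.3 and matplotlib 3.10.9 did the rest.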

Additional observations from a re-analysis of the deposited data

Results flagged for a closer look

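The 4 values of each gene named in the text were checked in each group for a value far from the other 3 by Dixon's criterion at the level of 0.05. Of 465 such groups 27 (5.81%) held one, and chance flags about 1 in 20 groups. Control 15 was that library in 14 of the 27.

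In control 15 some genes lay above the other 3 controls: Aspn was at 61.8 RPKM against 42.5 to 42.7 RPKM and F3 was at 628 RPKM against 552 to 555 RPKM. Hsp90aa1 was at 40.0 RPKM against 32.1 to 33.1 RPKM and Rbpj was at 10.1 RPKM against 9.21 to 9.31 RPKM. Sema3d was at 14.9 RPKM against 11.4 to 11.7 RPKM and Stra6 was at 0.0225 RPKM against 0 RPKM. Stra6 is at the floor here: with 0 in the other 3 controls the criterion flags any value above 0. Trp53inp1 was at 46.5 RPKM against 33.7 to 35.5 RPKM. Others lay below them there: Acta2 was at 910.5 RPKM against 1092 to 1119 RPKM and Cdk4 was at 273 RPKM against 294 to 296 RPKM. Col1a1 was at 1071 RPKM against 1373 to 1414 RPKM and Gpc1 was at 20.49 RPKM against 25.5 to 26.0 RPKM. Loxl3 was at 44.7 RPKM against 52.7 to 53.5 RPKM and Mgll was at 5.37 RPKM against 6.23 to 6.34 RPKM. Plin2 was at 35.3 RPKM against 39.4 to 40.2 RPKM. None of these genes changed its call or direction without control 15.

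In control 9, against the other 3 libraries of its group, Cd68 was at 0.505 RPKM against 0.618 to 0.628 RPKM and H19 was at 149 RPKM against 169.5 to 172 RPKM. In control 11, against the other 3 libraries of its group, Fgfr3 was at 1.06 RPKM against 0.808 to 0.833 RPKM. In control 13, against the other 3 libraries of its group, Il1rl1 was at 7.10 RPKM against 6.91 to 6.94 RPKM. In Fgf8b 10, against the other 3 libraries of its group, Hmga2 was at 130.3 RPKM against 135 to 136 RPKM and Jund was at 22.3 RPKM against 20.2 to 20.48 RPKM. In Fgf8b 12, against the other 3 libraries of its group, Etv4 was at 27.8 RPKM against 25.6 RPKM and Gjb2 was at 0.442 RPKM against 0.228 to 0.255 RPKM. Il18rap was at 8.89 RPKM against 10.3 to 10.6 RPKM. In Fgf8b 14, against the other 3 libraries of its group, Slc2a1 was at 89.9 RPKM against 92.9 to 93.1 RPKM. In Fgf8b 16, against the other 3 libraries of its group, Akr1c18 was at 27.4 RPKM against 22.8 to 23.3 RPKM and Aldh1a2 was at 6.13 RPKM against 5.31 to 5.42 RPKM. Fgf10 was at 8.43 RPKM against 7.88 to 7.94 RPKM.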

How the results depend on the processing

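Alternatives changed the pseudocount (0.1 or 1), the filter, the scaling, the value per gene, the repeated accessions, the libraries in the fit and the robust moderation, and each library was left out in turn, 18 settings in all. With the RefSeq transcript of highest mean in place of the sum, 910 genes were called at least 2-fold lower against 1388. That setting covers only genes whose RefSeq transcript passed the filter, 9049 of the 10141 called genes. The counts are therefore over different genes, and the part of this in the difference was not tested. Without 1 library at a time, genes called numbered 9583 to 10450, higher 4983 to 5433, lower 4582 to 5017, changed at least 2-fold 2128 to 2185, 735 to 755 of them higher and 1373 to 1450 lower. The balance of directions turned under both scalings: median-of-ratios factors gave 4998 calls higher against 5104 lower, and upper-quartile factors 4342 against 5700. Of 233 genes named in the text, 227 kept direction and call under every setting, and the other 6 are Adam17, Gnas, Itgb1, Rpl37, Sox10 and Zic1. Differences near 0 turned sign on the log2 scale. Gnas moved to -0.016 with median-of-ratios factors, -0.083 with upper-quartile factors (then called lower) and -0.028 without control 15, the lowest value without 1 library, of which the highest was 0.025. Itgb1 moved to -0.024 with median-of-ratios factors, -0.091 with upper-quartile factors and ranged from -0.024 to 0.042 with 1 library left out, below 0 in 5 of these 8 fits. Zic1 ranged from -0.068 to 0.014 with 1 library left out, above 0 only without Fgf8b 16. Depth of 13.7 to 16.1 M reads leaves genes near 0.1 RPKM at a few reads. No paired analysis was possible because no library number is shared between the groups and no label pairs them.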

Other observations

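Further members of the lists, chosen after their values were seen, extend the account of hormone and retinoid genes. Esr1, the oestrogen receptor alpha, fell like Pgr, from 1.86 ± 0.286 to 0.471 ± 0.144 RPKM. The remaining retinaldehyde dehydrogenases Aldh1a2 and Aldh1a3 fell 4.40-fold and 6.20-fold. On the side of retinal supply, Stra6, a membrane receptor for retinol carried by its binding protein, rose from 0.00563 ± 0.0113 to 0.534 ± 0.165 RPKM and Rdh10, a retinol dehydrogenase, 3.08-fold. Cyp26b1, which breaks down retinoic acid, fell 2.24-fold, and Crabp2 fell 4.03-fold while Crabp1 rose.

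Secreted factors of one family moved apart in several cases. Bmp2 rose 5.70-fold on the summed scale, while Bmp4 fell. The representative transcript of Bmp2 alone went from near the floor, 0.0581 ± 0.0114 RPKM, to 0.700 ± 0.191 RPKM. Angpt1, a ligand of the receptor Tek, rose 2.68-fold and Angpt2, its antagonist, fell 9.45-fold. Tgfb1 rose 2.15-fold, and Tgfb2 and Tgfb3 fell 5.27-fold and 2.65-fold. Igf1 and Igf2, the insulin-like growth factors, fell 4.52-fold and 5.44-fold, and Igf2 shares over 50% of its 31-base words with other genes, so its own value is uncertain. Ccl2, a monocyte chemokine, rose from 30.2 ± 0.945 to 235 ± 3.71 RPKM, and Cxcl1, a neutrophil chemokine, fell 3.76-fold. Csf1, a macrophage growth factor, rose 2.06-fold and Vegfa, an angiogenic factor, 2.10-fold.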
